A study of Mus musculus with 6 samples.

Results

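The genes described are those of neuropeptide Y (*Npy*), of its relative peptide YY (*Pyy*) and of their receptors *Npy1r*, *Npy2r* and *Npy5r*. They were taken by symbol from the gene list of the count matrices, where these 5 members stand among 32285 genes. The cells came from mouse pups at postnatal day 5 that carried a Cre transgene and a Cre-dependent red reporter, tdTomato, inserted at the *Rosa* locus, and were dissociated from the stellate ganglion, the coeliac ganglion and the lumbar chain, which are sympathetic, from the parasympathetic sphenopalatine ganglion, and from the pelvic ganglion. All groups carried the same genotype, and the labels name no treatment. The 6 libraries were sequenced in 2 rounds with different reagents, the stellate, the sphenopalatine and the first pelvic library (pelvic_1) in round 1, and the coeliac, the lumbar and the second pelvic library (pelvic_2) in round 2. Only the pelvic ganglion thus had 2 libraries, and each library pooled cells of pups whose number was not used here.

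Neuropeptide Y is stored with noradrenaline in many sympathetic neurons, above all those that constrict blood vessels, and is released with it. Peptide YY is best known from endocrine cells of the gut, and both peptides act on the same family of receptors, which couple to inhibitory G proteins. The receptor of *Npy1r* is the main one on vascular smooth muscle, that of *Npy2r* often sits on nerve endings, where it restrains transmitter release, and that of *Npy5r* is best known from the brain in the control of feeding.

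*Npy* lies on the forward strand at chr6:49822710-49829507 and *Pyy* on the reverse strand at chr11:102106676-102107832 (GRCm38, GENCODE M21). *Npy1r*, at chr8:66697192-66706792 on the forward strand, and *Npy5r*, at chr8:66679965-66688128 on the reverse strand, are neighbours whose starts face each other across 9.06 kb. *Npy2r* is at chr3:82538383-82548084 on the reverse strand. All are protein-coding, and no other annotated gene overlaps any of the 5. Because the peptides are related, reads of *Npy* and *Pyy* could in principle be exchanged. The stretches that encode the mature peptides are therefore shown side by side, 5′ to 3′, as taken from the annotated transcripts, with bases that are the same in both in capitals:
Npy: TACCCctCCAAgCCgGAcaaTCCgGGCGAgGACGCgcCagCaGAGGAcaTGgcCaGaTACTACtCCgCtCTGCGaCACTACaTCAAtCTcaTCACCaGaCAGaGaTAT
Pyy: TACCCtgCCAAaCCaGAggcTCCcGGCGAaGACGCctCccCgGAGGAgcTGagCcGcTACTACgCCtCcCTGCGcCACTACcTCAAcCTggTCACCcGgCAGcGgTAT
Of the 108 bases, 76 (70.4%) were the same, and 24 of 36 codons stood for the same residue. The differences were spread along the whole stretch. The longest run of bases that any protein-coding *Npy* transcript shared with any *Pyy* transcript was 10, so the 2 genes can be told apart by reads of ordinary length.

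The matrices held between 39353313 UMIs (coeliac) and 113352559 UMIs (stellate), a UMI being the tag of 1 captured RNA molecule. Of 30777 droplets, 21442 were retained, and 7053 of these were neurons by the mean level of *Stmn2*, *Stmn3*, *Gap43* and *Tubb3*, from 237 in the coeliac to 2725 in the stellate. The neurons matched the labels: *Th*, which encodes the first enzyme of noradrenaline synthesis, was found in 94.4% to 99.3% of sympathetic neurons, and the parasympathetic factor *Hmx2* in 50.5% of sphenopalatine neurons and at most 0.272% of all others. Their median depth ran from 26658 UMIs in the stellate to 108546 in pelvic_2, and that of the 8469 glial cells, the background for free RNA, from 3522 to 12151. Between 0 and 94 cell barcodes were shared by any pair of libraries, of which at most 49 belonged to retained cells, and 600 neurons (8.51%) resembled simulated doublets. Levels are UMIs of the gene per 1000000 UMIs of the group (CPM), with exact Poisson 95% intervals, and shares are those of cells with at least 1 UMI, with exact binomial 95% intervals. Both intervals cover counting error only, and they say nothing of the spread between animals. Glial cells were shallower than neurons, so a neuron at the CPM of glial cells held more UMIs of the gene than they did. The free RNA in neurons was not estimated.

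*Npy* was abundant in the neurons of every ganglion but the sphenopalatine. Its level was 3771 CPM (3742 to 3799) in coeliac, 3103 CPM (3091 to 3116) in stellate and 2249 CPM (2238 to 2260) in lumbar neurons. Pelvic neurons reached 2674 CPM in pelvic_1 and 2479 CPM in pelvic_2 (mean 2577 ± 137, SD, n = 2 libraries). Sphenopalatine neurons were at 55.4 CPM (53.7 to 57.1). The order was thus coeliac, stellate, pelvic, lumbar and, far below, sphenopalatine. Without doublet-like neurons, 47 of them among the 237 of the coeliac, the coeliac fell to 2892 CPM and the stellate was at 3208 CPM, so that these 2 changed places. The spread is known for the pelvic ganglion alone, where the libraries differed by less than either of them differed from the lumbar or the stellate library. With 1 library for each of the others, no neighbours in this order could be tested, and sequencing round and ganglion cannot be told apart for them.

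**Figure D1:**
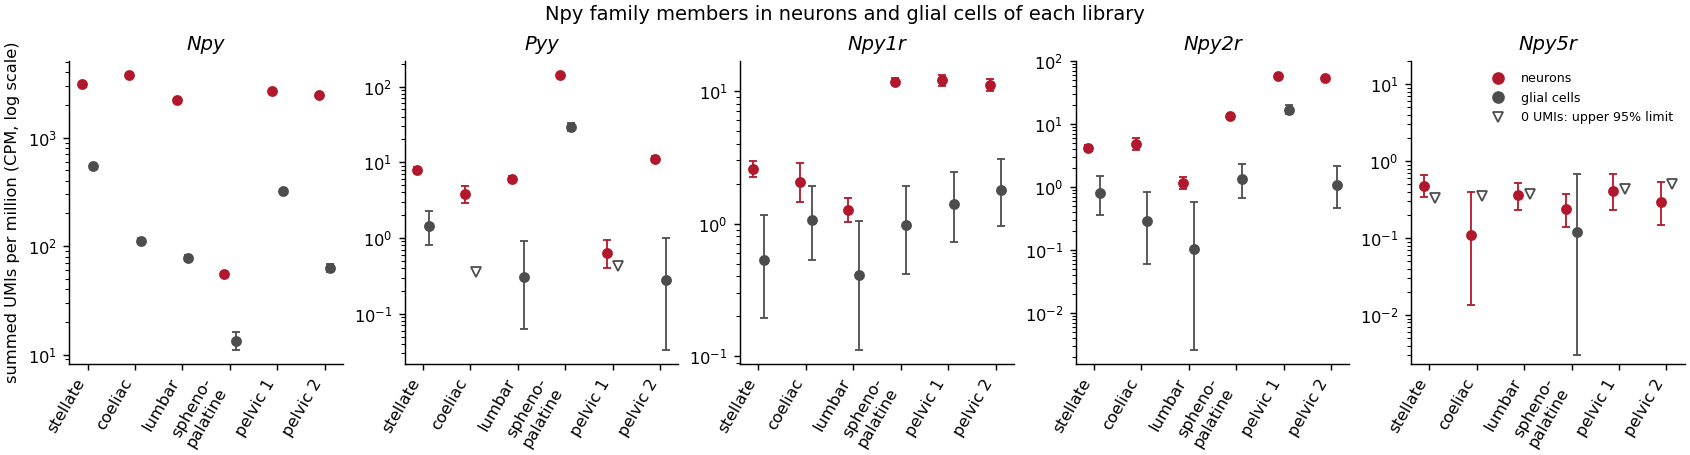
Levels of *Npy*, *Pyy*, *Npy1r*, *Npy2r* and *Npy5r* in the 6 libraries, in CPM on log axes, for neurons and for glial cells, with exact Poisson 95% intervals as bars and a triangle at the upper limit where no UMI was found. *Npy* fell to 55.4 CPM in sphenopalatine neurons, where *Pyy* reached 140 CPM, and *Npy2r* was highest in both pelvic libraries, at 58.6 and 53.7 CPM.

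Within the same round, the stellate level of *Npy* was 56.0-fold that of the sphenopalatine (54.3 to 57.8, counting interval), a comparison of 2 libraries with no replicate check. *Pyy* went the other way and was 17.6-fold higher in the sphenopalatine (16.2 to 19.1), and so were *Npy1r*, 4.56-fold (3.91 to 5.34), and *Npy2r*, 3.17-fold (2.80 to 3.6). All 4 members with at least 10 CPM on either side were thus past a 2-fold difference, which 10.4% of 8630 genes passed (4.07% higher in the stellate and 6.37% higher in the sphenopalatine). *Npy5r* was too low for this comparison, with 38 UMIs in the stellate and 18 in the sphenopalatine. Between the coeliac and the lumbar libraries, both of round 2, *Npy* differed by 1.68-fold (1.66 to 1.69) and was not past 2-fold, which 2.04% of 8598 genes were. The other members were under 10 CPM in both, among them *Npy2r*, with 88 UMIs in 237 coeliac neurons and 86 UMIs in 930 lumbar neurons.

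The RNA of *Npy* was also found outside neurons. Glial cells were at 544 CPM in the stellate, 320 in pelvic_1, 112 in the coeliac, 77.8 in the lumbar, 62.9 in pelvic_2 and 13.4 in the sphenopalatine. The 2 libraries of round 1 with many *Npy* neurons had the highest glial values. In the stellate, *Npy* stood to *Th* as 3.12 to 1 UMIs in neurons and as 2.54 to 1 in glial cells, and the ratio was 2.69 in fibroblast-like, 3.24 in endothelial-like, 3.16 in mural-like and 2.80 in macrophage-like cells. In pelvic_1 the ratio was 35.9 in neurons and 30.7 in glial cells. The ratios lay further apart in the round 2 libraries, with *Npy* to *Th* at 5.73 in neurons and 3.12 in glial cells of the coeliac and at 4.98 and 3.64 in the lumbar, and *Npy* to *Dbh*, which encodes the enzyme that makes noradrenaline, at 21.1 and 12.7 in pelvic_2. The glial *Npy* of pelvic_1 was uneven: 44.8% of its UMIs were in the 1% of glial cells with the most, the highest of which had 383, and the median glial cell was at 166 CPM.

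Because of this background, the share of neurons with an *Npy* UMI said little. It was 98.1% (97.5 to 98.6) in stellate, 99.6% in coeliac, 95.2% in lumbar, 98.2% in pelvic_1, 97.3% in pelvic_2 and 25.4% (23.4 to 27.4) in sphenopalatine neurons, against 83.3%, 65.8%, 43.0%, 54.8%, 48.0% and 4.46% of glial cells. After every cell was thinned to 2000 UMIs, the stellate share was 60.3% of neurons and 62.3% of glial cells. At this depth the share did not separate them. Before thinning, at median depths of 26658 and 3522 UMIs, 1329 of 2725 stellate neurons and 20 of 2901 glial cells had at least 10 *Npy* UMIs. In the other libraries the thinned share was higher in neurons, at 88.2% against 20.2% in the coeliac, 63.7% against 11.8% in the lumbar, 78.0% against 31.9% in pelvic_1, 74.7% against 11.3% in pelvic_2 and 5.42% against 2.17% in the sphenopalatine. The levels of single neurons separated better. In the stellate, 37.9% of neurons were above the 90th percentile of glial cells, which lay at 1149 CPM, and in the other *Npy*-rich libraries this share was 70.7% in the lumbar, 74.0% and 82.1% in the pelvic and 94.1% in the coeliac.

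*Npy* was therefore unevenly divided among sympathetic neurons. In the stellate the 10th percentile, the median and the 90th percentile of single neurons were 69.8, 421 and 8607 CPM. In the lumbar chain they were 16, 741 and 5978 CPM, and in the coeliac 449, 2333 and 6820 CPM. The median stellate neuron was below the 544 CPM of stellate glial cells, while the 90th percentile was far above it. The median depths were 26658 UMIs in these neurons and 3522 in these glial cells, so CPM alone does not show which neurons held only free RNA. Neurons were then clustered within each ganglion on genes from which all members had been left out, and clusters were named from transmitter markers. Clusters are compared by their values alone, since they come from the same cells.

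In the stellate, noradrenergic-like clusters 1 and 3 (638 and 535 neurons) were at 5067 and 5411 CPM, and noradrenergic-like clusters 2 and 5 (605 and 194 neurons) at 957 and 1213 CPM. All 4 carry the genes of noradrenaline synthesis, so that *Npy* divided neurons of the same transmitter. The cholinergic-like stellate cluster 6 (194 neurons), led by *Vip*, was at 1140 CPM, and the small cholinergic-like cluster 9 (28 neurons) at 102 CPM, below stellate glial cells. Both also held 4 noradrenergic markers, besides 4 and 3 cholinergic ones, and 20.1% and 28.6% of their cells were doublet-like. In the lumbar chain *Npy* ran from 4825 CPM in cluster 2 (198 neurons) over 1055 CPM in cluster 1 (496 neurons) to 74.0 CPM in cluster 4 (50 neurons), all noradrenergic-like, and was 45.9 CPM in the cholinergic-like cluster 6 (36 neurons). That cluster 6 also held 2 noradrenergic markers, besides 4 cholinergic ones, and 19.4% of its cells were doublet-like. Cluster 5 (44 neurons), at 2274 CPM, had 209 CPM of *Th*, 5 noradrenergic and 2 cholinergic markers, and a median of 24515 UMIs. Its 10 leading genes hold the cholinergic marker *Tlx3*, and it is described by its number alone. They hold no noradrenergic marker, but neither do those of clusters 1, 2 and 4. The lumbar clusters 4 and 6 were thus below the 77.8 CPM of lumbar glial cells. Those glial cells had a median of 10470 UMIs, so this does not show that the clusters held free RNA alone. Cluster 4 had 639 CPM of *Th* and 865 CPM of *Dbh*, and its depth, a median of 138397 UMIs per neuron, was the highest of the lumbar clusters. Both coeliac clusters were high, at 2455 CPM (145 neurons) and 4650 CPM (92 neurons), and the second of them, led by *Dsp*, *Calb2* and *Sst*, held 41.3% doublet-like cells.

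**Figure D2:**
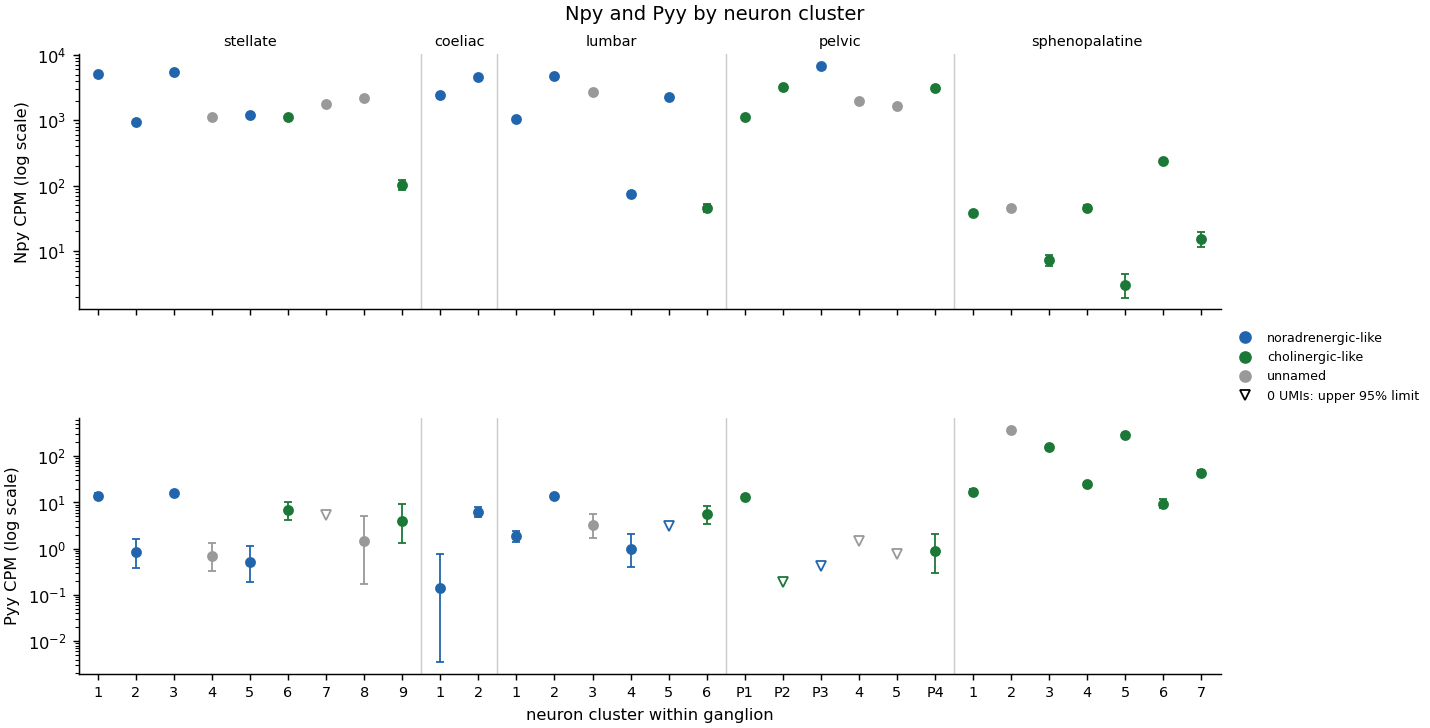
Levels of *Npy* and *Pyy* in CPM on log axes for each cluster of neurons, ordered by ganglion, with exact Poisson 95% intervals, colours for noradrenergic-like, cholinergic-like and unnamed clusters by the transmitter genes found in them, and a triangle at the upper limit where no UMI was found. Lumbar cluster 5 and sphenopalatine clusters 3 and 4, coloured by those genes, have a marker of the other transmitter among their leading genes. Stellate clusters 6 and 9 and lumbar cluster 6, coloured as cholinergic-like, hold noradrenergic markers as well. Lumbar clusters 4 and 6 were at 74.0 and 45.9 CPM of *Npy*, and sphenopalatine clusters 2, 3 and 5 at 363, 158 and 281 CPM of *Pyy*.

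*Pyy* was chiefly a gene of the sphenopalatine ganglion. Its level there was 140 CPM (137 to 143), against 7.96 CPM in stellate, 5.96 in lumbar, 3.78 in coeliac, 0.627 in pelvic_1 and 11 in pelvic_2 neurons. The share of neurons with a UMI was 44.3% (42.1 to 46.6) in the sphenopalatine, with 13.1% of glial cells as background, and 0.561% to 9.35% in the other ganglia. Thinned to 2000 UMIs, the sphenopalatine shares were 8.89% of neurons and 5.48% of glial cells. Glial cells of the sphenopalatine had 29.5 CPM of *Pyy*, and other glial cells between 0 and 1.42 CPM. In that ganglion *Pyy* stood to *Vip*, a peptide of cholinergic neurons, as 0.0508 in neurons, 0.0663 in glial cells, 0.0762 in endothelial-like and 0.123 in mural-like cells.

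The *Pyy* of the other ganglia came from very few cells. In pelvic_2, 403 of 409 UMIs (98.5%) were in 1 neuron of 368, and in the coeliac 64 of 68 UMIs (94.1%) were in 1 of 237. In pelvic_1, 13 of 23 UMIs were in 1 neuron. These cells were singled out after their values were seen. In the stellate and the lumbar, 13 and 11 neurons had at least 10 *Pyy* UMIs. In the sphenopalatine 136 neurons did, 21 had at least 100, and the highest had 704. The 1% of sphenopalatine neurons with the most *Pyy* held 50.3% of its 10629 UMIs, so that the RNA was concentrated there too.

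Among sphenopalatine clusters, *Pyy* was at 281 CPM (270 to 293) in the cholinergic-like cluster 5 (213 neurons), led by *Gpr50* and by *Penk* and *Tac1*, which encode enkephalin and substance P, and 86.9% of its neurons had a UMI. Cluster 3 (324 neurons), led by the noradrenergic marker *Dbh* and by *Aldh1a2*, was at 158 CPM (151 to 165). Cluster 2 (345 neurons) was the highest, at 363 CPM, but it stayed without a name because glial markers led it, 27.5% of its cells were doublet-like, and its 90th percentile, 195 CPM, was below its mean. Without that cluster the sphenopalatine level of *Pyy* was 85.5 CPM, below the 140 CPM of all neurons by more than 1.5-fold. Cluster 7 was at 44.5 CPM, cluster 4 at 24.8, cluster 1 at 17.1 and cluster 6 at 9.49 CPM. The last of these were below the 29.5 CPM of sphenopalatine glial cells.

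*Npy* was ordered differently in the same ganglion. It was 241 CPM (232 to 252) in the cholinergic-like cluster 6 (161 neurons), where 66.5% of neurons had a UMI, and 46.1 CPM in cluster 4, 45 in cluster 2, 38.0 in cluster 1, 15.3 in cluster 7, 7.22 in cluster 3 and 3.00 CPM (1.94 to 4.42) in cluster 5. Clusters 3 and 5, which had much *Pyy*, were below the 13.4 CPM of *Npy* in sphenopalatine glial cells. Cell by cell, 482 of 1901 sphenopalatine neurons had an *Npy* UMI, 843 had a *Pyy* UMI and 197 had both. At a minimum of 5 UMIs, 150 neurons had *Npy* and 211 had *Pyy*, and 1 had both. That is 0.667% of the *Npy* neurons, while 11.1% of all sphenopalatine neurons had that much *Pyy*. At a minimum of 10 UMIs the numbers were 105, 136 and 1. The neurons rich in either peptide gene were thus nearly separate sets in this library, and no test was made of it.

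**Figure D3:**
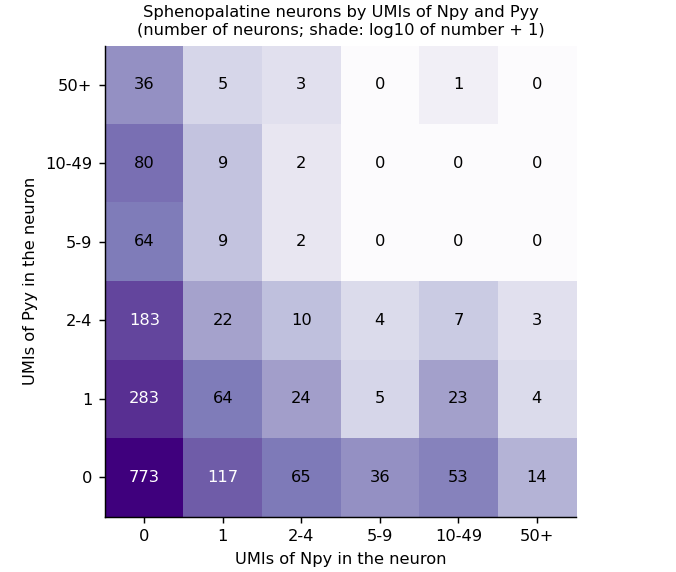
Numbers of sphenopalatine neurons by their UMIs of *Npy* and of *Pyy*, in bins of UMIs per neuron. The bins with at least 10 UMIs of both genes hold 1 of 1901 neurons, while 105 had at least 10 of *Npy* and 136 at least 10 of *Pyy*.

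*Npy1r* was low in sympathetic neurons and several times higher in sphenopalatine and pelvic neurons. It was 2.57 CPM (2.23 to 2.95) in the stellate, 2.06 (1.45 to 2.84) in the coeliac and 1.27 (1.02 to 1.56) in the lumbar, where the coeliac interval overlapped both of the others. It was 11.7 CPM (11 to 12.5) in the sphenopalatine, 12 in pelvic_1 and 11 in pelvic_2 (mean 11.5 ± 0.667, SD, n = 2 libraries), so that the sphenopalatine value fell between the pelvic ones. Glial cells had 0.411 to 1.79 CPM. The share of neurons with a UMI was 23.5% in the sphenopalatine and 28.5% and 39.7% in the pelvic libraries, against 0.207% to 2.09% of glial cells. At 4000 UMIs per neuron it was between 0.225% and 6.25% in all ganglia. In the sphenopalatine, *Npy1r* was highest in cluster 6, at 47.2 CPM (43.0 to 51.8), the cluster that also had the most *Npy*, and lowest in clusters 3 and 5, at 1.90 and 1.56 CPM.

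*Npy2r* was the receptor gene with the widest range. It was 58.6 CPM (56.2 to 61.2) in pelvic_1 and 53.7 CPM (51.3 to 56.1) in pelvic_2 (mean 56.1 ± 3.51, SD, n = 2 libraries). Sphenopalatine neurons were at 13.3 CPM (12.5 to 14.2), coeliac neurons at 4.89, stellate neurons at 4.21 and lumbar neurons at 1.19 CPM. The coeliac and stellate intervals overlapped, at 3.93 to 6.03 and 3.77 to 4.68 CPM. A UMI was found in 69.8% and 68.5% of pelvic, 29.2% of sphenopalatine, 20.3% of coeliac, 8.37% of stellate and 4.62% of lumbar neurons. Thinned to 4000 UMIs per neuron, these shares were 17.7% and 18.5%, 5.45%, 0.431%, 1.15% and 0.562%, in the same order. The coeliac share was then no longer above the stellate one. In glial cells *Npy2r* was between 0.103 and 1.33 CPM except in pelvic_1, where it was 17.1 CPM, with 77.4% of 146 UMIs in the 1% of glial cells that had the most. In the sphenopalatine it was highest in cluster 1, at 29.9 CPM (27.4 to 32.7), and at most 2.44 CPM in clusters 4 to 7, among them cluster 6 with the most *Npy1r*. In the stellate it was highest in cluster 5, at 10.9 CPM.

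*Npy5r* was barely detected. The 6 libraries had 38 (stellate), 2 (coeliac), 26 (lumbar), 18 (sphenopalatine), 15 (pelvic_1) and 11 (pelvic_2) UMIs in neurons, which is 0.111 to 0.479 CPM and 0.844% to 2.45% of neurons. Glial cells had 1 UMI in the sphenopalatine and 0 in the other 5 libraries, where 3 counts would make at most 0.524% of cells and 0.266 to 0.414 CPM. The level of *Npy5r* in neurons was thus near the limit of what glial cells could have shown. The stellate, with the highest CPM of *Npy5r*, was among the libraries with little *Npy1r*, the neighbouring gene. Among the named pelvic types described below, the noradrenergic one had the highest CPM of both genes.

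The 6 libraries allowed a test of neurons against glial cells, with edgeR's quasi-likelihood test on summed counts, the library as a block and Benjamini-Hochberg adjustment over all genes. Of 14027 genes 75.2% were called, 37.8% higher and 37.4% lower in neurons. *Npy* was higher in neurons by 3.92 on the log2 scale (SE 0.56, adjusted p = 0.000302), *Pyy* by 3.37 (SE 0.48, adjusted p = 0.000303), *Npy1r* by 2.54 (SE 0.34, adjusted p = 0.000229) and *Npy2r* by 3.31 (SE 0.50, adjusted p = 0.000432) by this edgeR test. The 4 members tested were thus all called higher. *Npy5r* was removed by the filter on low counts, so the 4 are not all members. These calls held in each alternative run, and how much free RNA took part in the glial sums was not tested.

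The other comparison with more than 1 library on both sides was that of pelvic neurons (2 libraries) with sympathetic neurons (3 libraries of 3 ganglia), with sequencing round as a covariate. It asked how the pelvic ganglion stands to the sympathetic ones. Of 17459 genes, 17.5% were called, 9.83% higher and 7.71% lower in pelvic neurons. Of the 5 members, 2 were called, both higher. *Npy2r* was higher by 4.09 on the log2 scale (SE 0.45, 17.1-fold, edgeR adjusted p = 0.000831), with pelvic values of 53.7 and 58.6 CPM above sympathetic values of 1.19 to 4.89 CPM. *Npy1r* was higher by 2.53 (SE 0.24, 5.79-fold, edgeR adjusted p = 0.000436), with pelvic values of 11 and 12 CPM above 1.27 to 2.57 CPM. For neither gene did the groups overlap. The call on *Npy2r* was lost without the stellate library (log2 difference 4.41, edgeR adjusted p = 0.0602) and without pelvic_2 (3.76, edgeR adjusted p = 0.0813), each with 1 library fewer in the fit. That on *Npy1r* held in each alternative run.

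The peptide genes and *Npy5r* were not called in this comparison. The log2 difference of *Npy* was -0.25 (SE 0.21, edgeR adjusted p = 0.469), and the pelvic values of 2674 and 2479 CPM lay within the sympathetic range of 2249 to 3771 CPM. That of *Npy5r* was -0.09 (SE 0.52, edgeR adjusted p = 0.935). That of *Pyy* was -0.32 (SE 0.86, edgeR adjusted p = 0.849). It was -3.71 without pelvic_2, which leaves 1 pelvic library. The neuron with 403 UMIs was in pelvic_2, but no fit was made without that neuron alone. In 2 of the alternatives *Pyy* was called lower in pelvic neurons, and in 7 it was not called. Among these 2, without the coeliac library, *Pyy* was lower by a log2 difference of -0.94 (edgeR adjusted p = 0.00187), with 1 library fewer in the fit. Yet its pelvic values of 0.627 and 11 CPM lay on both sides of 7.96 CPM in the stellate and 5.96 CPM in the lumbar. Noradrenergic and cholinergic genes moved strongly in the same comparison, with *Th*, *Dbh*, *Ddc*, *Slc18a2* and *Slc6a2* all lower and *Chat*, *Slc18a3*, *Slc5a7*, *Vip* and *Tlx3* all higher in pelvic neurons (5 of 5 each). *Npy* thus stayed within the sympathetic range in a ganglion where *Th* was lower by 3.54 on the log2 scale (SE 0.22, edgeR adjusted p = 6.31e-05).

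Within the pelvic ganglion, clusters with markers of the 4 types that the study distinguishes were named after them, P1-like with 481, P2-like with 333, P3-like with 162 and P4-like with 85 neurons. P3-like neurons are noradrenergic and the others cholinergic, and 2 further clusters of 105 and 94 neurons stayed without a name. *Npy* was 7314 CPM in pelvic_1 and 6153 CPM in pelvic_2 in P3-like neurons (mean 6734 ± 821, SD, n = 2 libraries). It was 2741 and 3833 CPM in P2-like neurons (3287 ± 773), 3075 and 3110 CPM in P4-like neurons (3093 ± 24.8) and 1100 and 1113 CPM in P1-like neurons (1107 ± 9.14). By these sums P3-like neurons were highest and P1-like neurons lowest in both libraries, while P2-like and P4-like neurons overlapped. Even the lowest sum was above the 320 and 62.9 CPM of pelvic glial cells. P4-like neurons were uneven, with medians of 327 and 1141 CPM and 90th percentiles of 8831 and 9777 CPM. The medians were 613 and 916 CPM in P1-like and 2450 and 3917 CPM in P2-like neurons. After thinning to 4000 UMIs, 61.8% and 70.0% of P4-like neurons had an *Npy* UMI, against 74.4% and 75.2% of P1-like neurons.

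Set against all named cholinergic clusters of the same library, P3-like neurons had 3.79-fold (3.74 to 3.84) more *Npy* in pelvic_1 and 2.93-fold (2.89 to 2.98) more in pelvic_2. Of 8306 genes 6.78% were past 2-fold the same way in both libraries, 2.84% higher in the noradrenergic cluster and 3.94% higher in the cholinergic clusters. With a pair of libraries this is a repeated value and not a test. *Npy1r* differed by 1.26-fold (0.967 to 1.63) and 1.81-fold (1.38 to 2.35) and *Npy2r* by 1.05-fold (0.933 to 1.19) and 1.41-fold (1.23 to 1.60), neither past 2-fold. The stellate and lumbar chain had cholinergic-like clusters too, all with noradrenergic markers as well, 4 in those of the stellate and 2 in that of the lumbar chain. There *Npy* was 3717 CPM in noradrenergic-like and 843 CPM in cholinergic-like stellate neurons, and 45.9 CPM in the cholinergic-like lumbar cluster. Summed over types, cholinergic-like pelvic neurons were at 1930 CPM in pelvic_1 and 2097 CPM in pelvic_2. These sums were above the values of cholinergic-like stellate and lumbar neurons and of sphenopalatine neurons, at 55.4 CPM. P1-like neurons, at 1100 CPM in pelvic_1 and 1113 CPM in pelvic_2, were not above the cholinergic-like stellate cluster led by *Vip*. That stellate cluster had a median of 10574.5 UMIs. Glial cells had 544 CPM of *Npy* in the stellate, against 320 in pelvic_1 and 62.9 in pelvic_2, and these levels are not corrected for free RNA.

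*Npy2r* ranked the pelvic types differently. It was 222 and 178 CPM in P4-like neurons (mean 200 ± 31.3, SD, n = 2 libraries), 61.9 and 73.1 CPM in P3-like neurons (67.5 ± 7.90), 54.8 and 44.2 CPM in P2-like neurons (49.5 ± 7.53) and 35.1 and 33.3 CPM in P1-like neurons (34.2 ± 1.28). P4-like neurons were above all others in both libraries. After thinning to 4000 UMIs, 65.5% and 50.0% of P4-like neurons had an *Npy2r* UMI, against 17.1% and 36.4% of P3-like, 16.3% and 14.7% of P2-like and 10.3% and 13.5% of P1-like neurons. Every pelvic type had more *Npy2r* than the neurons of any other ganglion taken as a whole. By cluster the difference was smaller. The interval of the highest sphenopalatine cluster, given above, overlapped those of P1-like neurons, 32.1 to 38.4 and 30.7 to 36.1 CPM.

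*Npy1r* was nearly missing from the type that had the most *Npy2r*. It was 0.431 and 1.56 CPM in P4-like neurons (mean 0.996 ± 0.798, SD, n = 2 libraries), from 1 and 5 UMIs. P3-like neurons had 14.5 and 18.8 CPM (16.6 ± 3.07), P1-like neurons 13.4 and 12.3 CPM (12.9 ± 0.783) and P2-like neurons 11.3 and 9.50 CPM (10.4 ± 1.25). The P4-like level was at that of pelvic glial cells, 1.40 and 1.79 CPM. *Npy5r* was confined to few cells, most of them P3-like: 12 and 7 UMIs in 129 and 33 P3-like neurons (2.08 CPM ± 0.326, SD, n = 2 libraries), against 3 and 3 in the other named types together. The ratio of levels was 21.4-fold (5.79 to 118) in pelvic_1 and 18.4-fold (4.20 to 110) in pelvic_2, with counting intervals as wide as these few UMIs allow. After thinning to 4000 UMIs no pelvic neuron kept an *Npy5r* UMI.

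**Figure D4:**
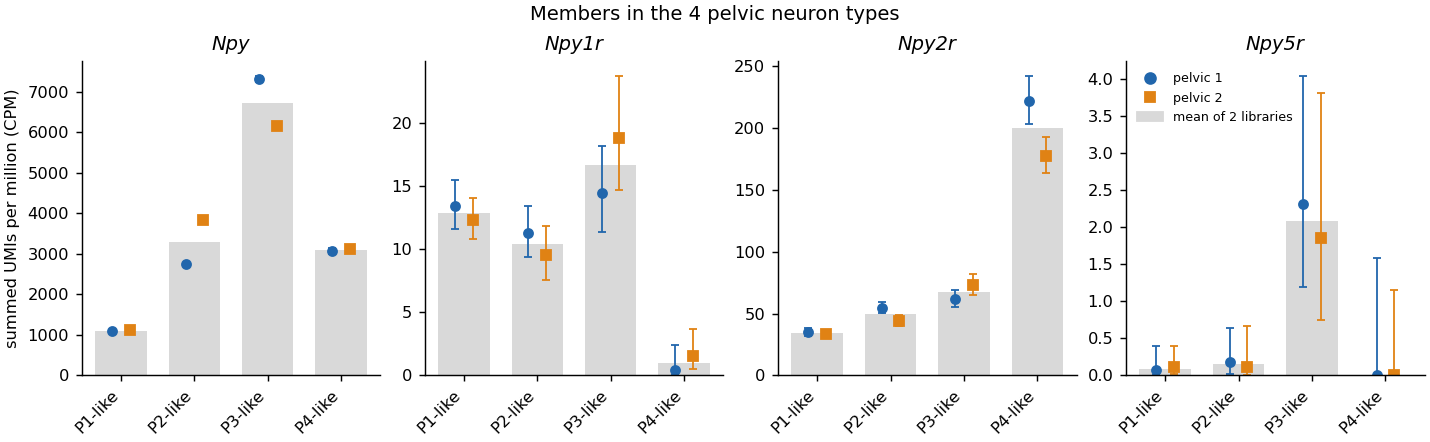
Levels of *Npy*, *Npy1r*, *Npy2r* and *Npy5r* in the P1-like to P4-like pelvic clusters, in CPM, with a grey bar for the mean of the 2 pelvic libraries and a point with its exact Poisson 95% interval for each. P3-like neurons had the most *Npy* (7314 and 6153 CPM), and P4-like neurons the most *Npy2r* (222 and 178 CPM) with 0.431 and 1.56 CPM of *Npy1r*.

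The remaining family genes were *Ppy*, which encodes pancreatic polypeptide, its receptor gene *Npy4r*, and *Npy6r*. *Ppy*, which lies 5.36 kb from *Pyy*, had at most 4 UMIs in the neurons of any library. *Npy4r* was between 1.13 and 6.73 CPM in neurons. In the pelvic ganglion it was 7.77 and 10.3 CPM in P4-like neurons (9.03 ± 1.79, SD, n = 2 libraries) and 0 in 129 and 33 P3-like neurons, which allows up to 0.579 and 0.794 CPM at 3 counts. Elsewhere *Npy4r* reached 9.28 CPM in coeliac cluster 2, 9.71 CPM in the cholinergic-like lumbar cluster 6 and 7.82 CPM in the cholinergic-like stellate cluster 6. *Npy6r* had the opposite distribution, with 7.05 to 16 CPM in glial cells and 0.0276 to 0.518 CPM in neurons of the 6 libraries, and was lower in neurons by edgeR (log2 difference -6.15, SE 0.44, adjusted p = 7.56e-06). *Npy6r* was also called higher in pelvic than in sympathetic neurons (log2 difference 2.54, SE 0.61, edgeR adjusted p = 0.0250), but this was lost in 6 of 9 alternatives and the neurons had less of it than glial cells in each library.

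Of 6 tested genes of peptide processing and breakdown, *Pcsk1* and *Pcsk2*, the convertases that cut the precursor, *Cpe*, which trims it, and *Scg5* were higher in neurons than in glial cells, *Mme*, which encodes a protease of the cell surface, was lower, and *Pam*, the amidating enzyme, was not called (median log2 difference 2.78, against 0.01 over all genes tested). *Dpp4* was removed by the filter. Between pelvic and sympathetic neurons, *Pam* was higher by 0.81 (SE 0.18, edgeR adjusted p = 0.0203) and *Mme* by 2.86 (SE 0.37, edgeR adjusted p = 0.00166), and 4 of 6 were not called (median 0.04, against -0.02 over all genes). In the pelvic libraries *Mme*, like *Npy*, was higher in the P3-like cluster, at 11 against 0.540 CPM in pelvic_1 and 21.5 against 0.369 CPM in pelvic_2, and so was *Pcsk2*, 8.62-fold and 8.69-fold.

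Of the genes through which these receptors signal, *Gnao1*, which encodes an inhibitory G protein subunit, the potassium channel gene *Kcnj3* and the calcium channel gene *Cacna1b* were higher in neurons than in glial cells, *Gnai2* was lower, and *Gnai1* and *Gnai3* were not called (median log2 difference 1.63 over 6 genes). In pelvic against sympathetic neurons, *Kcnj3* was higher by 1.53 (SE 0.31, edgeR adjusted p = 0.0118) and *Kcnj6* by 5.05 (SE 0.51, edgeR adjusted p = 0.000554), and 6 of 8 were not called (median 0.24). *Kcnj6* had few counts, with 5 UMIs in stellate, 0 in coeliac and 7 in lumbar neurons. The cholinergic clusters of pelvic_1 and pelvic_2 had 47 and 119 UMIs of it, and P3-like neurons 0 in both. Of 8 other neuropeptide genes in that comparison, *Sst*, *Penk*, *Cartpt*, *Calca*, *Adcyap1* and *Tac1* were higher, *Gal*, which like *Npy* is a peptide gene of many sympathetic neurons, was lower by 5.93 on the log2 scale (SE 0.56, edgeR adjusted p = 0.000407), and *Grp* was not called.

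The measure with which the study sorted genes compares, over all ways of dividing 8 groups of neurons, the shares of neurons with a UMI on either side. *Pyy* ranked 116 of 13315 genes, with the sphenopalatine against all others (score 3.01). *Npy2r* ranked 292 (score 2.29), with the 4 pelvic types, the coeliac and the sphenopalatine on the high side, and *Npy* ranked 549 (score 1.69), with the sphenopalatine alone on the low side. *Npy1r* ranked 1011 (score 1.21), with P1-like to P3-like and sphenopalatine neurons high, and *Npy5r* reached no score. When neurons were thinned to 4000 UMIs, *Npy2r* was divided otherwise, with P4-like neurons alone on the high side (rank 44 of 6856, score 2.84). *Npy* kept its division and ranked 49, *Pyy* kept its division with a score of 0.660 and ranked 469, and *Npy1r* no longer had a score.

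Over 12 groups (4 ganglia and the 4 pelvic types in each library), the genes with the pattern most like *Npy* among 9998 were *Gm13889* (Pearson r = 0.94 of log2(CPM + 1)), *Isl1* (0.94), which encodes a transcription factor of sympathetic neurons, and *Hoxc8* (0.92). For *Pyy* they were *2900079G21Rik* (0.91), *Pcdh15* (0.90) and *Tunar* (0.88), all highest in the sphenopalatine. For *Npy1r* they were *Fbxw9* (0.91), *Cmpk1* (0.89) and the potassium channel gene *Kcnk3* (0.88), and for *Npy2r* *Palm3* (0.96), *Adgre1* (0.95) and the potassium channel gene *Kcnk2* (0.93). Some of these varied little and others widely. *Npy1r* ran from 0.431 to 18.8 CPM and *Kcnk3* from 4.99 to 111 CPM. *Fbxw9* ran only from 51.8 to 84.7 and *Cmpk1* from 218 to 266 CPM. *Npy2r* ran from 1.19 to 222 CPM, *Adgre1* from 25.5 to 249 and *Kcnk2* from 14.3 to 204.5 CPM, but *Palm3* only from 3.99 to 12.2 CPM. *Npy5r* was below 10 CPM in each group and was not compared. The 8 pelvic points come from 2 libraries and the groups share chemistry within a round, so these r describe the 12 groups and have no test. The r between *Npy* and *Pyy* was -0.85. Of the 12 groups, the sphenopalatine had the least *Npy*, 55.4 CPM, and the most *Pyy*, 140 CPM. *Gm13889*, *Isl1* and *Hoxc8* were lowest there too. No r was computed without that ganglion, so how far these r rest on it is not known. *Pyy* was 22.4 CPM in P1-like neurons of pelvic_2, the library with 403 of 409 *Pyy* UMIs in 1 neuron.

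Mural-like cells were named from markers of smooth muscle cells and pericytes, and whether they lay around vessels was not tested. Beyond neurons, *Npy1r* stood out in this class, which was singled out after its values were seen. It was 26.9 CPM (14.7 to 45.2) in the stellate, 37.6 (21 to 61.9) in the coeliac, 49.3 (25.5 to 86.0) in the lumbar, 44.7 (28.3 to 67.0) in the sphenopalatine, 52.8 (42.0 to 65.6) in pelvic_1 and 68.7 CPM (54.3 to 85.7) in pelvic_2. Endothelial-like cells had 1.61 to 11.2 CPM, and fibroblast-like, macrophage-like and Schwann-like cells at most 1.20 CPM. In each of the 6 libraries the mural-like level of *Npy1r* was above that of neurons taken as a whole, glial cells and every other named class of the same library. By neuron cluster this did not hold: the interval of sphenopalatine neuron cluster 6, given above, overlapped that of the mural-like cells of its library. The values rest on 12 to 82 UMIs in 27 to 266 cells a library, and no test was made. In the pelvic libraries, the mural-like clusters led by the smooth muscle genes *Rergl* (pelvic_1) and *Myh11* and *Actg2* (pelvic_2) had 82.1 and 93.5 CPM of *Npy1r*. Those led by the pericyte genes *Higd1b* and *Rgs5* had 18.0 and 44.9 CPM, and a further one in pelvic_1, led by *Colec11* and *Actg2*, had 42.8 CPM.

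**Figure D5:**
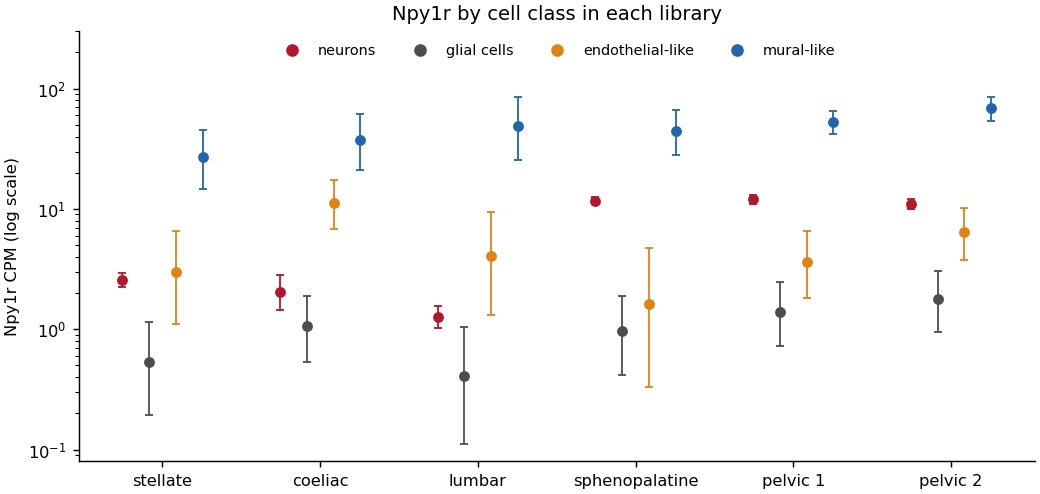
Levels of *Npy1r* in CPM by cell class and library, with exact Poisson 95% intervals. Mural-like cells were the highest class in all 6 libraries, at 26.9 to 68.7 CPM, above neurons taken as a whole at 1.27 to 12 CPM.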

How the data were processed

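Droplet libraries of 6 ganglion preparations were sequenced by the authors, who ran Cell Ranger 6.0.1 on mm10 and deposited, for the droplets it called as cells, the raw counts of UMIs, which they did not normalize. A droplet entered the values if more than 1500 and fewer than 11000 genes were found in it and if mitochondrial UMIs made less than 15%. Neurons (mean of 4 neuronal markers above 3 and of 5 glial markers below 1.15) and glial cells (at or above 1.15 and not above 3) were selected on values of sctransform 0.4.2 in R 4.3.3. Levels, shares and tests used the deposited counts.

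Neurons were clustered within each ganglion by Louvain (resolution 0.3) on 30 principal components of 2000 variable genes without the family genes, and other cells within each library. Clusters were named from marker lists and stayed unnamed where markers of another class led or depth was low. Doublet-like cells, with over 50% simulated doublets among 30 neighbours, were kept. Summed counts were tested with edgeR 4.0.16 (filterByExpr, TMM, two-sided, threshold of 0.05), and with DESeq2 1.42.0 as an alternative, and the edgeR fit was tested on simulated data. No source says that the libraries came from separate litters, so p-values measure the spread between these libraries.

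Results for 1 gene are not reported here. The members and gene lists were chosen with earlier results of these data known. Genes named are the members, the other family genes, lists for processing, signalling, transmitters and other neuropeptides, the 3 genes most like each member and, to describe cells and clusters, marker genes and leading genes of clusters. Leaving out unnamed clusters, the neuron with the most UMIs of a gene, and thinning to 2000 UMIs were chosen after seeing the data.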

Additional observations from a re-analysis of the deposited data

Results flagged for a closer look

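Some unnamed clusters of cells that were not selected as neurons held *Npy* above the glial cells of the same library. They are given as values, with no test. Between 0% (both clusters of pelvic_2) and 25.5% (98 cells of pelvic_1) of their cells were classed as glial cells and so entered the glial sums, and the others entered no comparison. The share was 17.7% in the stellate, 11.5% in the coeliac and 20.7% in the lumbar cluster. In the stellate, a cluster of 203 cells led by *Snhg11* was at 3641 CPM, against 544 CPM in glial cells. In the coeliac, 52 cells led by *Snhg11*, *Chga* and *Cartpt* were at 1160 CPM, and in the lumbar chain 29 cells led by *Snhg11* and *Nefm* at 1105 CPM. In pelvic_1, *Npy* was 1889 CPM in 160 cells led by *Chga*, *Cfap61* and *Th*, and 2095 CPM in 98 cells led by *Snhg11*. In pelvic_2, it was 2305 CPM in 32 cells led by *Chgb* and *Chga*, and 963.3 CPM in 30 cells led by *Snhg11* and *Sst*.

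Of these, the *Snhg11*-led clusters of both pelvic libraries also held *Npy2r*, at 195.8 CPM in pelvic_1 and 135.6 CPM in pelvic_2, against 17.1 and 1.1 CPM in glial cells. *Snhg11* and the chromogranin genes *Chga* and *Chgb* are known from neurons and endocrine cells, and the clusters were given no name.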

How the results depend on the processing

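No log2 difference called as reported changed sign in the alternatives run. Between pelvic and sympathetic neurons, those of *Pyy*, *Npy5r* and *Npy4r*, not called, did, and that of *Pyy* ran from -3.71 to 1.17 without single libraries. The order of *Npy* levels did change: without doublet-like neurons the coeliac fell below the stellate, and as a mean over cells both pelvic libraries (2658 and 2625 CPM) were level with the stellate. For the levels of members in the ganglia, 124 alternative values stayed within the counting interval, or within the SD of the pelvic libraries, and 36 moved beyond it, which for *Npy* with its many counts needed little. Neuron selection on log counts gave 3119 CPM of *Npy* in the stellate, 3738 in the coeliac and 60.9 CPM of *Npy2r* in the pelvic ganglion. Without doublet-like neurons *Npy* was 3208 in the stellate, 2892 in the coeliac and 2232 in the lumbar, and with no exclusion by glial markers 3089 in the stellate and 3739 in the coeliac. As a mean over cells it was 2625 in the stellate, 3065 in the coeliac, 2000.4 in the lumbar and 47.0 in the sphenopalatine, and *Pyy* was 118 in the sphenopalatine. Chosen after seeing the data, leaving out unnamed clusters gave *Npy* 3526 (stellate), 2224 (lumbar) and 57.9 (sphenopalatine) and *Pyy* 85.5 (sphenopalatine). Leaving out the neuron with the most UMIs gave *Npy* 3085, 3647, 2216 and 53.5 (stellate, coeliac, lumbar, sphenopalatine) and *Pyy* 131 (sphenopalatine). *Npy* in P1-like neurons was 1143 CPM with no centring within libraries. Shares of neurons moved in 86 of 90 alternatives, since thinning and a minimum of 2 UMIs lower them.

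In pelvic against sympathetic neurons, 3062 genes were called by edgeR, 3087 by DESeq2, 1050 with no sequencing round covariate, and 728 to 4202 when libraries were left out in turn (785 without the stellate, 957 without pelvic_1 and 728 without pelvic_2). The log2 difference of *Npy2r* was 3.66 to 4.56 without single libraries. The score of *Npy1r* was 0.830 with at least 2 UMIs, where P1-like and P3-like neurons alone were on the high side. It was 1.28 without pelvic_2, with the division kept, and 1.65 without pelvic_1, where the sphenopalatine left the high side. That of *Npy2r* was 2.84 after thinning, with P4-like neurons alone on the high side. With at least 2 UMIs it was 2.85, with the pelvic types alone there and without the coeliac and the sphenopalatine. The causes of these changes were not tested. Neurons and glial cells were compared with the library as a block. Between ganglia, replicate numbers pair nothing. No paired analysis was possible because the ganglia compared share fewer than 2 replicate numbers. Depth limits *Npy5r*, and 1 library per ganglion limits every comparison but the 2 tests.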
